A study of Drosophila melanogaster with 6 samples.

Results

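Described here are 5 Drosophila melanogaster genes of the humoral immune response, measured in whole adult flies labelled DHR96 mutant and in flies of the wild-type strain Canton S. They are PGRP-SC2 (CG14745), AttC (CG4740), Drs (CG10810), Drsl5 (CG10812) and PPO1 (CG5779), taken by CG number from the authors' deposited table of genes differing between these flies. That table names 251 genes on 260 probe sets, and the array carries 18769 probe sets apart from the manufacturer's controls. Each of the 5 has 1 probe set in the table. Because the authors chose their table on the same 6 arrays, the 5 genes were certain to differ, and the tests below describe the size and steadiness of each difference and do not support it independently.

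There were 3 arrays a group, each of total RNA from whole animals kept 7 days on standard fly food. The controls are called genetically matched in the design text. Hr96, formerly called DHR96, encodes a nuclear receptor. No allele, sex or number of animals per array is given in the labels, and nothing says whether the 3 samples of a group were separate collections, so the spread behind the p-values is that between these samples and may be technical.

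Flies meet infection with soluble factors released into the hemolymph and the gut. Bacterial peptidoglycan is sensed by recognition proteins of the PGRP family, and the Toll and Imd pathways then switch on genes for antimicrobial peptides, mainly in the fat body after systemic infection and in the epithelium of the gut. Some PGRPs are amidases that cut peptidoglycan and so dampen Imd signalling. Separately, prophenoloxidases made by crystal cells, a type of blood cell, are activated at wounds and around intruders and produce melanin.

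In the fit of all probe sets with limma, 6.96% passed a Benjamini-Hochberg adjusted p of 0.05, 3.29% (617) raised and 3.67% (689) reduced in the arrays labelled DHR96 mutant. After quantile normalization the split was 630 higher and 463 lower. The median log2 difference over all probe sets was -0.0015. The targeted gene itself, Hr96, read 527, 498 and 546 in Canton S and 977, 985 and 928 in the arrays labelled DHR96 mutant, so its probe set does not show a loss and does not check the labels. Poly-A spike-in controls, added to the RNA before labelling, set DHR96 mutant replicates 2 and 3 apart: the 3' dap control read 437 and 468 there and between 920 and 1170 on the other 4 arrays. No label names a batch, and what this split reflects was not tested. Values with the split as a block, which compare DHR96 mutant replicate 1 with the 3 Canton S arrays, are given with each gene. Ratios of 3' to 5' actin signal, a sign of RNA quality, ran from 2.23 to 2.37 in Canton S and from 2.31 to 2.61 in the arrays labelled DHR96 mutant. For GAPDH the groups stood apart, with ratios of 1.299 to 1.35 in Canton S and 1.353 to 1.42 in the arrays labelled DHR96 mutant. Their part in the results was not tested.

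All 5 genes passed the threshold, with PGRP-SC2, AttC and Drs raised and Drsl5 and PPO1 reduced in the arrays labelled DHR96 mutant. For each of them the 3 values of a group lay apart from those of the other group, as they did for 30.9% of all probe sets. Nothing is read from either count, since the table was chosen on this contrast. In size the members lay well within the table, whose smallest listed fold was 1.301: by the log2 difference in the authors' deposited table, AttC ranked 19 of the 251 genes, PGRP-SC2 74, Drsl5 149, Drs 151 and PPO1 153. In bulk RNA from whole animals, fewer cells of a type and less transcript per cell cannot be told apart.

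**Figure D1:**
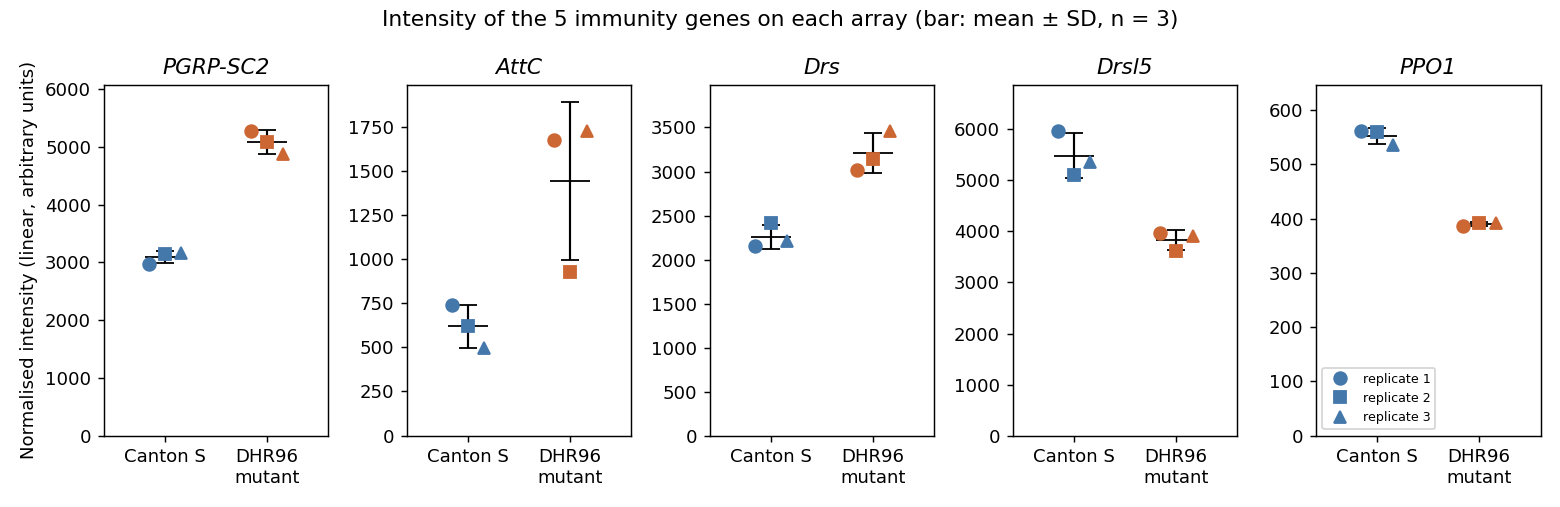
Normalised intensity (linear scale from 0, arbitrary units) of each gene on the 3 Canton S arrays (blue) and the 3 arrays labelled DHR96 mutant (orange), with the mean and SD of each group; symbols mark the replicate number. The groups lie apart for all 5 genes, and AttC has the widest spread relative to its mean, with 1 mutant array at 925 and the others at 1673 and 1728.

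Recognition and turnover of peptidoglycan were represented by PGRP-SC2, which encodes a secreted amidase. Its intensity was 2971, 3142 and 3166 in Canton S and 5278, 5090 and 4872 in the arrays labelled DHR96 mutant. The lowest of the higher group was 1.54 times the highest of the lower group, and arrays within a group differed little. PGRP-SC2 rose 1.64-fold (95% interval 1.53 to 1.75), from 3093 ± 106 to 5080 ± 203 (SD, n = 3 each), a log2 difference of 0.71 (SE 0.0412, limma adjusted p = 0.000219). With the spike-in split as a block the log2 difference was 0.77 (limma adjusted p = 0.00521), and PGRP-SC2 was the 1 gene of the 5 that passed with that block.

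Near PGRP-SC2 in gene order lie its paralogs PGRP-SC1a and PGRP-SC1b, which the authors' deposited table gives on 1 shared probe set, so that their transcripts cannot be told apart. That probe set read 1773, 1760 and 2092 in Canton S and 2651, 2938 and 2183 in the arrays labelled DHR96 mutant. The groups stood apart, but only narrowly, with Canton S replicate 3 at 2092 next to DHR96 mutant replicate 3 at 2183. The log2 difference was 0.46 (95% interval 0.20 to 0.72, limma adjusted p = 0.0517), which did not pass the threshold, against a q-value of 1.39% in the authors' deposited table. With the spike-in split as a block the log2 difference of that probe set was 0.50.

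The antimicrobial peptide genes were AttC, Drs and Drsl5, and they did not move one way. AttC encodes an attacin, a peptide active against Gram-negative bacteria and a target of the Imd pathway. Drs encodes drosomycin, the antifungal peptide whose gene is the standard readout of Toll signalling, and Drsl5 belongs to the same drosomycin family.

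AttC had the largest difference of the 5 and the least steady. It read 742, 619 and 496 in Canton S and 1673, 925 and 1728 in the arrays labelled DHR96 mutant. DHR96 mutant replicate 2 stood far below the other two of its group, at 1.25 times the highest Canton S array, and single pairs of a mutant and a Canton S array differed by anything from 1.25-fold to 3.48-fold. AttC rose 2.24-fold (95% interval 1.51 to 3.31), from 619 ± 123 to 1442 ± 449 (SD, n = 3 each), a log2 difference of 1.16 (SE 0.243, limma adjusted p = 0.0348). The spread between its arrays was wider than that of 99.2% of probe sets.

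The call of AttC changed with single arrays. It was lost without Canton S replicate 1 (limma adjusted p = 0.0811), 2 (0.0801) or 3 (0.0914) and without DHR96 mutant replicate 1 (0.104) or 3 (0.0925). Without DHR96 mutant replicate 2 it was kept (limma adjusted p = 0.00520, log2 difference 1.45). With the spike-in split as a block the log2 difference of AttC was 1.43 with a limma adjusted p of 0.249. The log2 difference of AttC was above 1 in each of these fits.

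Drs read 2154, 2410 and 2214 in Canton S and 3020, 3146 and 3464 in the arrays labelled DHR96 mutant. Every mutant array was above every Canton S array, the nearest pair by 1.25 times. Drs rose 1.42-fold (95% interval 1.28 to 1.56), from 2259 ± 134 to 3210 ± 229 (SD, n = 3 each), a log2 difference of 0.50 (SE 0.0614, limma adjusted p = 0.00693). With the spike-in split as a block it was 0.42 (limma adjusted p = 0.181, unadjusted p = 0.00163).

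Drsl5 went the other way. Its intensity was 5974, 5112 and 5361 in Canton S and 3961, 3609 and 3914 in the arrays labelled DHR96 mutant. All 3 mutant arrays lay below the lowest Canton S array, which was 1.29 times the highest mutant array. Drsl5 fell 1.43-fold (95% interval 1.29 to 1.58), from 5482 ± 444 to 3828 ± 191 (SD, n = 3 each), a log2 difference of -0.51 (SE 0.0623, limma adjusted p = 0.00676). With the spike-in split as a block it was -0.46 (limma adjusted p = 0.181, unadjusted p = 0.00168).

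Drs and Drsl5 thus changed by nearly the same amount in opposite directions on the log2 scale, 0.50 and -0.51, with intervals of 0.36 to 0.65 and -0.66 to -0.37. Both lie in the drosomycin gene cluster. Of the other family members, Drsl1 and Drsl6 were among the 10 protein-coding genes to each side of Drs, and Drsl2, Drsl3, Drsl4, Drsl1 and Drsl6 among those around Drsl5. The probe sets of these 5 paralogs are not identified by name here.

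Melanization was represented by PPO1, listed as Bc (Black cells) in the authors' deposited table, a prophenoloxidase gene of crystal cells. PPO1 read 562, 560 and 535 in Canton S and 386, 392 and 392 in the arrays labelled DHR96 mutant. The groups were narrow and well apart, the lowest Canton S array at 1.37 times the highest mutant array. PPO1 fell 1.40-fold (95% interval 1.31 to 1.499), from 553 ± 14.9 to 390 ± 3.69 (SD, n = 3 each), a log2 difference of -0.49 (SE 0.0423, limma adjusted p = 0.00196). With the spike-in split as a block it was -0.50 (limma adjusted p = 0.0686, unadjusted p = 0.00018). These levels lie near the array medians of 470 to 484. There the background left in the values, with a lowest intensity of 97.2 to 103 per array, can make a fold too small. AttC, at 496 in Canton S replicate 3, also came near these medians, so that limit holds for AttC too.

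**Figure D2:**
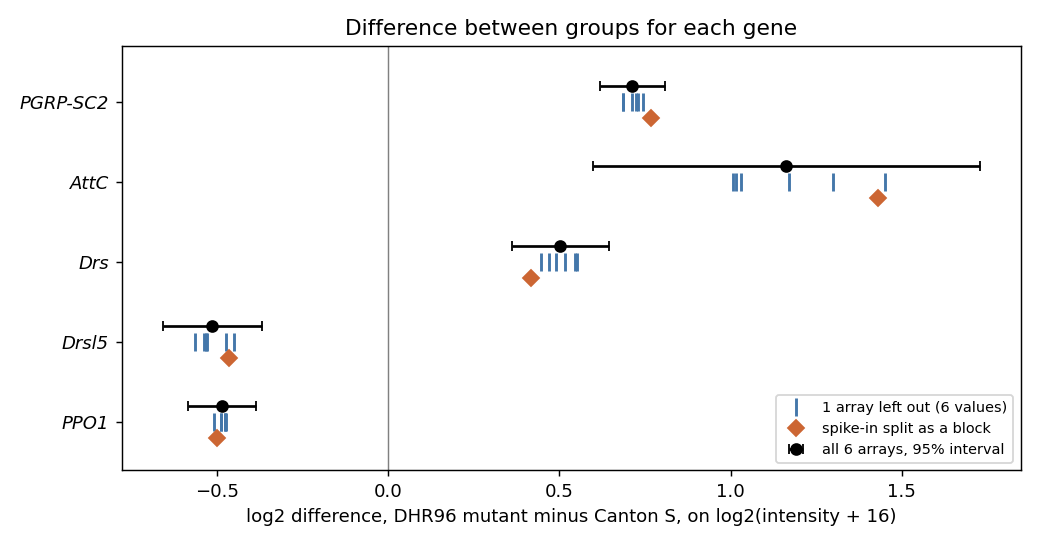
Log2 difference of each gene, arrays labelled DHR96 mutant minus Canton S: black points with 95% intervals from all 6 arrays, blue ticks for the 6 fits that leave out 1 array, and orange diamonds for the value with the spike-in split as a block. All values keep the side of 0 they have in the fit of all arrays; the ticks of AttC spread from 1.01 to 1.45 and those of PPO1 from -0.51 to -0.47.

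The 5 genes differed most in how steady they were. Relative to the spread between arrays of a group, on the log2 scale, the difference was 17.1 times the SD for PPO1, 13.2 times for PGRP-SC2, 5.41 times for Drs, 5.35 times for Drsl5 and 2.86 times for AttC. PPO1, with the smallest log2 difference of the 5, also had the smallest SD, 0.0285, below that of all but 8.43% of probe sets. For AttC the SD was 0.407. By p-value among all probe sets, PGRP-SC2 ranked 18, PPO1 41, Drsl5 125, Drs 130 and AttC 843.

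**Figure D3:**
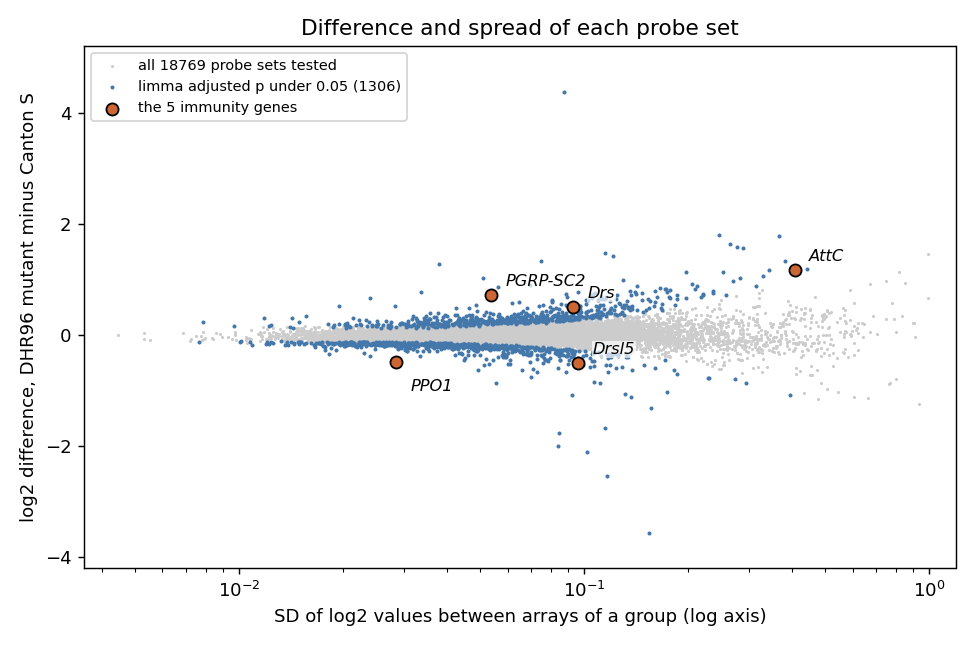
Log2 difference (arrays labelled DHR96 mutant minus Canton S) of each probe set against the SD of its log2 values between arrays of a group, on a log axis: grey for all 18769 probe sets, blue for the 1306 past the threshold, orange for the 5 immunity genes. PPO1 and PGRP-SC2 lie at small SD (0.0285 and 0.0539) and AttC at 0.407, among the probe sets of widest spread.

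Within the groups no array was high or low for all 5 genes. In the arrays labelled DHR96 mutant, PGRP-SC2 was lowest and Drs highest in replicate 3, and AttC and Drsl5 were lowest in replicate 2. In Canton S, AttC and Drsl5 were highest in replicate 1, where PGRP-SC2 and Drs were lowest. Correlations between the 5 genes over the 6 arrays were also taken after the group means were removed. They ran from -0.61 for PGRP-SC2 with PPO1 to 0.72 for AttC with Drsl5. For Drs with Drsl5 the value was -0.43, and for AttC with Drs 0.12. These 6 points share their arrays and their normalization, and the values are given as a description.

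Little else of the humoral response is named in the authors' deposited table. Of 37 antimicrobial peptide genes listed, 3 were named, of which 2 rose and 1 fell, with a median log2 difference of 0.50. The median of all 251 named genes was 0.45 and that of all probe sets -0.0015; of the 251, the authors' deposited table gives 171 as higher and 80 as lower. Of 16 genes for recognition of peptidoglycan and glucan, PGRP-SC2 was the 1 with a probe set of its own. Of 14 melanization genes, 13 of which could be matched to a gene name, PPO1 was the 1 named. None of 14 Toll pathway genes, 10 Imd pathway genes, 9 lysozyme and gut defence genes or 13 genes of the Turandot and thioester protein list was named; this says no more than that the authors did not select them.

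The ontology terms in the authors' deposited table attach a defence or immune response to 17 of the 251 genes, the 5 described here and 12 others, a group formed after the values were seen. Of all 251 named genes, 159 rose and 76 fell past the threshold. Among those 12 others, 6 rose, 4 fell and 2 did not pass, and nothing is read from that count. Those that rose include stw (log2 difference 0.63, limma adjusted p = 0.00441), which encodes a laccase that acts in cuticle tanning, and se (0.60, limma adjusted p = 0.0172), which encodes an enzyme of eye pigment synthesis. Those that fell include the scavenger receptor gene ninaD (-0.54, limma adjusted p = 0.00721), the transporter gene Mdr50 (-0.60, limma adjusted p = 0.00383) and the glutathione transferase gene GstE1 (-0.87, limma adjusted p = 0.0322). GstE7 and CG8483 did not pass (limma adjusted p = 0.0535 and 0.0827). The 4 genes se, ninaD, Mdr50 and GstE1 are better known for pigment, transport and detoxification than for immunity.

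Markers of the organs that make these transcripts could be read only where the authors' deposited table names them. That table was chosen on this contrast, so the markers read were selected as differing. Their differences are not read as a change of the whole organ. Of 10 fat body markers, 6 were named and 4 were not read. Among the 6 named, 5 rose. The summed intensity of these 6 selected genes was 6481 to 8311 in Canton S and 13244 to 18631 in the arrays labelled DHR96 mutant. The 5 were the larval serum protein genes Lsp2 (log2 difference 1.63) and Lsp1gamma (1.07), the fat body protein genes Fbp1 (1.56) and Fbp2 (1.32), and Obp99b (0.79). Lsp1beta had a log2 difference of 0.62 and did not pass (limma adjusted p = 0.0514). None of the 6 passed with the spike-in split as a block, and their median log2 difference was 0.74 in place of 1.19; that of Lsp1gamma was 0.68 and that of Fbp2 0.81. Among the mutant arrays, Lsp1beta, Lsp1gamma, Fbp1 and Fbp2 were highest in replicate 3, and Lsp2 and Obp99b in replicate 2. Drs and AttC were highest in replicate 3, and PGRP-SC2 and Drsl5 in replicate 1. These orders are given as a description.

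The midgut markers that could be read, selected as differing in the same way, moved mostly the other way. Of 10, 7 were named and 3 were not read. The summed intensity of these 7 selected genes was 31874 to 34264 in Canton S and 16426 to 20347 in the arrays labelled DHR96 mutant. The protease genes Jon99Fi, Jon99Ci, Jon65Ai, Jon65Aii and iotaTry and the lipase gene mag fell, and Npc1b rose by 1.33 on the log2 scale; 4 of the 7 passed with the spike-in split as a block. Of 5 crystal cell markers PPO1 was the 1 named, and of 8 plasmatocyte markers none was, so the number of blood cells cannot be followed by other genes here. No named marker was listed at 0. The part of these organ markers in the differences of PGRP-SC2, AttC, Drs and Drsl5 was not tested.

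**Figure D4:**
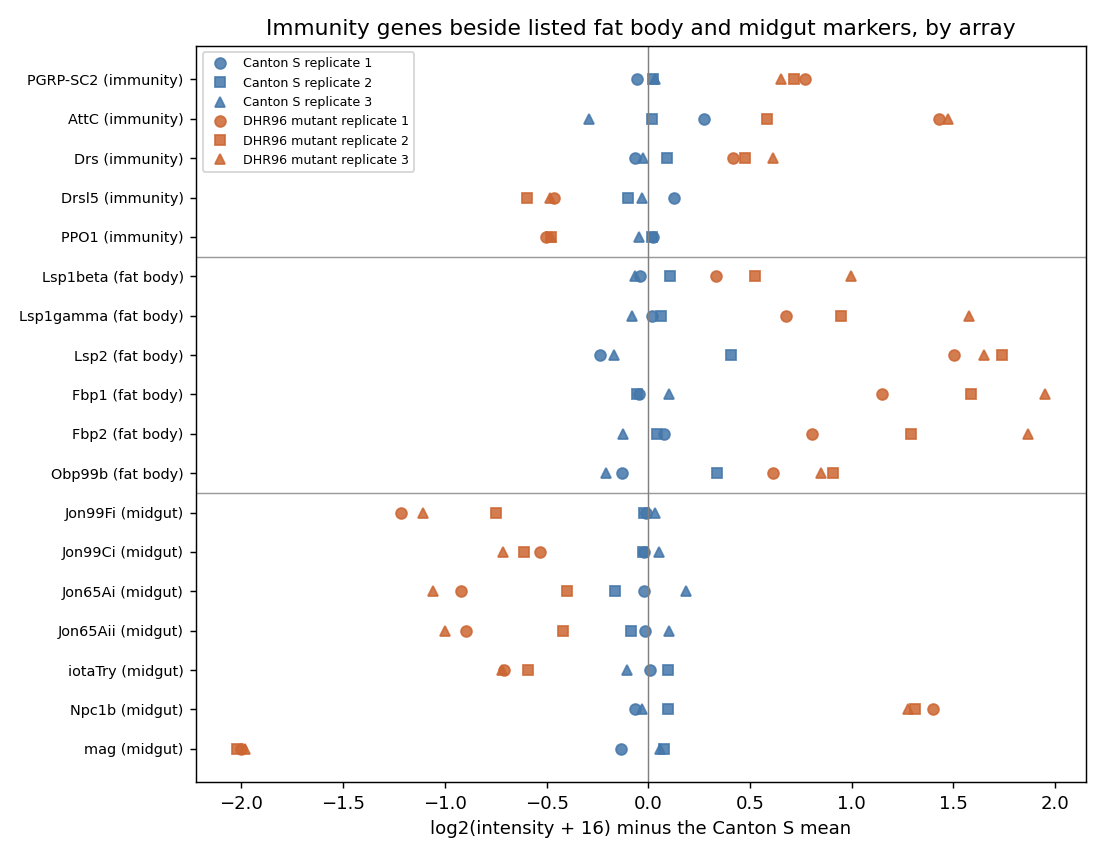
Log2(intensity + 16) on each array minus the Canton S mean, for the 5 immunity genes (top), the 6 named fat body markers (middle) and the 7 named midgut markers (bottom); blue for Canton S, orange for arrays labelled DHR96 mutant, symbols for the replicate. The mutant arrays lie right of 0 for the fat body markers and left of 0 for the midgut markers other than Npc1b.

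Gene order was taken from the annotation of the fly genome, for names and neighbours alone. Within 10 protein-coding genes of a member on either side lay 90 different genes. Of these 90, 7 had a named probe set of their own in the authors' deposited table. The share among all protein-coding genes was smaller, 1.76% (245 of 13951), and the difference in share was not tested. PGRP-SC1a and PGRP-SC1b, on their shared probe set, are not counted. PPO1 had 4 of the 7 as neighbours: CG5770 and CG10910 rose by 1.79 and 0.45 on the log2 scale, and olf186-M and CG5767 fell by 0.64 and 0.39. PPO1 itself fell by 0.49, so its neighbours went both ways. Near AttC, CG4734 rose by 1.47 and CG4716 fell by 0.38 on the log2 scale, and near Drs, CG12010 rose by 0.42. PGRP-SC2 and Drsl5 had no neighbour with a named probe set of its own in the table. Of these neighbours, CG4734 passed with the spike-in split as a block (limma adjusted p = 0.00263) and the other 6 neighbours did not (limma adjusted p = 0.0583 for CG5770 and at least 0.181 for the rest).

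The genes of most similar profile were sought among the 250 other named genes by Pearson's r of log2 values over the 6 arrays. The step between the groups enters this r, so r within the groups is given with it. The variation within the groups enters the ranking too, so r within the groups tends to be raised by the choice of the nearest genes. It is therefore no separate check, and both values are given as a description. For PGRP-SC2 the nearest were Npc1b (r = 0.997, 0.744 within groups), the potassium channel gene slo (0.996, 0.706) and CG8997 (0.995, 0.688). Drs was nearest to Pu (0.995, 0.945), which encodes GTP cyclohydrolase, the neuropeptide gene AstCC (0.994, 0.930) and the chitinase gene Cht7 (0.993, 0.909).

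For AttC the nearest were CG33093 (0.978, 0.917), CG4950 (0.966, 0.897) and CG13311 (0.964, 0.955). Drsl5 was nearest to CngB (0.993, 0.922), the rhodopsin gene Rh2 (0.991, 0.898) and the lipase-family gene sxe2 (0.988, 0.914). PPO1 was nearest to the alpha-mannosidase genes LManIII (0.997, 0.710) and LManVI (0.996, 0.461) and to CG10514 (0.996, 0.747), whose log2 differences of -1.67, -2.10 and -1.07 were larger than its own. The ranking used r with its sign, so a gene that rose could not come near one that fell. Between members that moved in opposite directions, r over the 6 arrays ran from -0.995 (PGRP-SC2 with PPO1) to -0.73. Between those that moved the same way it ran from 0.84 to 0.96, and none was among the 3 nearest genes of another.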

How the data were processed

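The authors deposited intensities per probe set on a linear scale, with array medians of 470 to 484; no source used here gives the normalization between arrays. The submitters' processing notes name MAS5. The authors' deposited table gives, per the file headers, a SAM score, its log2 numerator and denominator, a fold with its sign, and a percent q-value. Its numerator equalled the mutant minus Canton S mean log2 value within 5.68e-10.

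From 18952 probe sets, 183 controls were set aside. limma 3.58.1 in R 4.3.3 (lmFit, eBayes with trend) was fitted to log2(intensity + 16) of all 18769 others with the group as the only term, two-sided, Benjamini-Hochberg threshold 0.05; fold changes are on that scale. No filter on low values was used. The procedure was tested on simulated data. Gene names came from the authors' deposited table alone, through the gene table of the fly genome, which matched 246 of 251. The files name no build, and no coordinates are given. A gene with several probe sets is represented by its brightest, and 3 probe sets naming several genes were kept out.

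The members, lists, tests and alternatives were chosen with earlier results of these arrays known. Named were the 5 genes, Hr96, members of the lists past the threshold and the 3 nearest profiles per member; ontology terms, neighbours and the shared PGRP-SC1a and PGRP-SC1b probe set were added after their values were seen. Alternatives were other scalings, pseudocounts, variance models, a filter on dim probe sets, blocks for replicate number and for a split of the arrays by their spike-in controls, and each array left out. The number of arrays limits the precision.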

Additional observations from a re-analysis of the deposited data

How the results depend on the processing

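The differences of the 5 genes, the number of them that passed and the number of all probe sets that passed were recomputed under 15 alternatives. All 5 genes had the same direction in every one, which groups that do not overlap largely fix in advance. PGRP-SC2 passed in all 15, with log2 differences of 0.68 to 0.77, Drs, Drsl5 and PPO1 in 14, and AttC in 7. When the split by spike-in controls entered as a block, limma's adjusted p called 1 of the 5 genes, and the unadjusted p was under 0.05 for all 5; the log2 differences of those that no longer passed were 1.43 for AttC, 0.42 for Drs, -0.46 for Drsl5 and -0.50 for PPO1, and 31 probe sets passed in all, 1987 at an unadjusted p under 0.05. That fit compares 1 mutant array with 3. AttC did not pass with robust variances or with the replicate block, its log2 difference being 1.16 in both (limma adjusted p = 0.109 and 0.0731). With 1 array left out, its log2 difference ran from 1.01 to 1.45 (limma adjusted p = 0.00520 to 0.104), and 287 to 803 probe sets passed in all. The total was 813 without the intensity trend and 240 with the replicate block. Deviations of arrays with the same replicate number correlated at 0.19, -0.22 and -0.24, and those with different numbers at -0.21 to 0.30. So no pairing by replicate number was seen. Deviations within a group of 3 sum to 0, so these values cannot settle whether the numbers pair the arrays. The replicate block changed no call of the 5 genes other than AttC's. Other scalings, pseudocounts and the filter on dim probe sets changed no call of the 5 genes. Where a call was lost, the cause was not tested. The fits with 1 array left out also rest on fewer arrays. Other values in the text were given with the spike-in split at most.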
